A study of Rattus with 6 samples.

Results

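Described here are 10 genes that encode the enzymes of collagen hydroxylation and crosslinking, out of 16690 genes in the deposited expression table. They are the prolyl 4-hydroxylase alpha subunit genes P4ha1, P4ha2 and P4ha3, the lysyl hydroxylase genes Plod1, Plod2 and Plod3, and the lysyl oxidase genes Lox, Loxl1, Loxl2 and Loxl3. They were chosen by name, and all 10 were found in the table. The series profiled RNA of cultured bone marrow mesenchymal stem cells (BMSCs), stromal cells that attach to plastic and can turn into osteoblasts or adipocytes. One group of 3 libraries came from rats in which chronic kidney disease (CKD) was modelled, and the other 3 from controls. All were wild-type Sprague Dawley rats, and all cells were grown in α-MEM with fetal bovine serum, penicillin and streptomycin. How CKD was brought about is not given in the sources used here, and neither is whether each library comes from its own animal.

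Procollagen chains are modified inside the endoplasmic reticulum before they are secreted. Prolyl 4-hydroxylases, built of an alpha subunit that carries the active site and the beta subunit P4HB, hydroxylate prolines and so stabilise the triple helix. Lysyl hydroxylases act on lysines, and the product of Plod2 is known for acting on the telopeptides at the chain ends, where it sets which kind of crosslink can form. Outside the cell the copper enzymes of the lysyl oxidase family turn lysines and hydroxylysines into aldehydes, from which the crosslinks of collagen and elastin arise. Both hydroxylase families need iron, oxygen, oxoglutarate and ascorbate, and several of their genes are known targets of the hypoxia response.

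The libraries held between 34404037 and 46892613 fragments, recovered from the table. CKD replicates 2 and 3 were alike across genes (Pearson r = 0.996), as were control replicates 2 and 3 (r = 0.998). CKD replicate 1 was nearer to every control library than to either other CKD library. Its r was 0.967 with control replicate 1 and at least 0.9458 with the other controls. With CKD replicates 2 and 3 its r was 0.935 and 0.9438. Control replicate 1 was likewise nearer to CKD replicate 1 than to either other control library. These correlations run across genes, which are not independent replicates. The labels' disease model tag goes against the title and library name in CKD replicate 1 and control replicate 2, and the extract protocol speaks of exosome RNA where the design text speaks of the cells. Expression is given as FPKM, fragments scaled to transcript length and to library depth, so that levels of different genes can be set side by side. Of 12 listed stromal markers 11 passed the filter of at least 1 FPKM in at least 3 libraries, and Lepr, which peaked at 0.246 FPKM, did not. Itgb1, which encodes the stromal surface marker CD29, was at 1098, 847 and 963 FPKM in CKD replicates 1, 2 and 3, against 985, 1204 and 1154 in control replicates 1, 2 and 3. Others of the 11 varied more. Eng was at 10.8, 20.4 and 21.8 FPKM in CKD, against 11.8, 83.4 and 88.8 in control. Nt5e was at 8.79, 38.8 and 36.4 FPKM in CKD, against 8.53, 15.9 and 16.1 in control. Of the 11, 4 had a positive and 7 a negative log2 fold change. Limma called 0 of the 11, with 3 at an unadjusted p under 0.05, and limma-voom also called 0, with 3 at that level. In limma, 22.1% of all tested genes reached that level. Among the 11, Cd44, Pdgfrb and Vcam1 were higher and Thy1 lower in every CKD library than in every control library. Groups were apart in this way in 27.8% of all tested genes, with 18.3% higher and 9.59% lower. The 16 listed markers of haematopoietic cells and macrophages summed to 288, 3178 and 2112 FPKM in CKD replicates 1, 2 and 3, against 380.4, 21.5 and 13.9 FPKM in control replicates 1, 2 and 3. Ptprc, which encodes the leukocyte antigen CD45, was at 0.783, 15.5 and 11.4 FPKM in CKD replicates 1, 2 and 3, against 1.33, 0.0140 and 0.0204 FPKM in control replicates 1, 2 and 3. At exactly 0 were 0 of the 16 in every CKD library, against 0, 1 and 3 in control replicates 1, 2 and 3. The 5 endothelial markers in the table summed to at most 2.42 FPKM in any library, and 0 of them passed the filter.

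All 10 enzyme genes were well expressed. Lox was the most abundant, with a mean of 493 FPKM over the 6 libraries, which gave it rank 120 among the 16690 genes. Plod2 followed with 218 FPKM and P4ha1 with 171 FPKM. Lox was above the other 9 genes, and Plod2 above the remaining 8, in 6 of 6 libraries. Further down, the means were 112 FPKM for P4ha2, 107 for Loxl2, 90.0 for Plod1, 87.0 for P4ha3, 72.0 for Loxl3, 66.7 for Loxl1 and 59.1 for Plod3, at rank 1072. Neighbours in this lower part changed places between libraries, with P4ha3 above Loxl3 in 6 of 6 libraries as the exception. The members rested on 5439 to 129508 fragments per library.

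In the comparison of CKD with control, 0 of the 10 genes passed the threshold, an adjusted p of 0.05 in limma over all 10638 tested genes, where 2.07% of genes passed. At an unadjusted p under 0.05, 3 were higher and 1 was lower, while 22.1% of all tested genes reached that level. Plod2, Plod3 and P4ha1 were the 3 on the higher side and Loxl3 the 1 on the lower side. In 4 genes the groups did not overlap: Plod2 and Plod3 were higher, and Lox and Loxl3 lower, in every CKD library than in every control library. Such a gap was found in 27.8% of all tested genes, with 18.3% higher and 9.59% lower. Limma-voom on the recovered counts also called 0 of the 10, and 0.912% of all genes. In the authors' deposited table, among the 10 genes, 2 were higher and 1 was lower at a q-value under 0.05, a level that 11.9% of the tested genes reached. Limma-voom with sample quality weights called 4 higher and 3 lower, but also 56.0% of all genes, and with both first libraries left out the same numbers were called where 55.0% of all genes were. The median log2 fold change over the 10 genes was -0.021, with 5 positive and 5 negative, against 0.053 over all tested genes. With control replicate 1 left out, 3 of the genes were called higher and 1 lower, in a fit that called 12.0% of all genes, and with CKD replicate 1 left out 1 was called higher and 0 lower, where 15.1% of all genes were called. With both libraries whose tags conflict left out, 0 of the 10 were called, where 2.8% of all genes were.

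**Figure D1:**
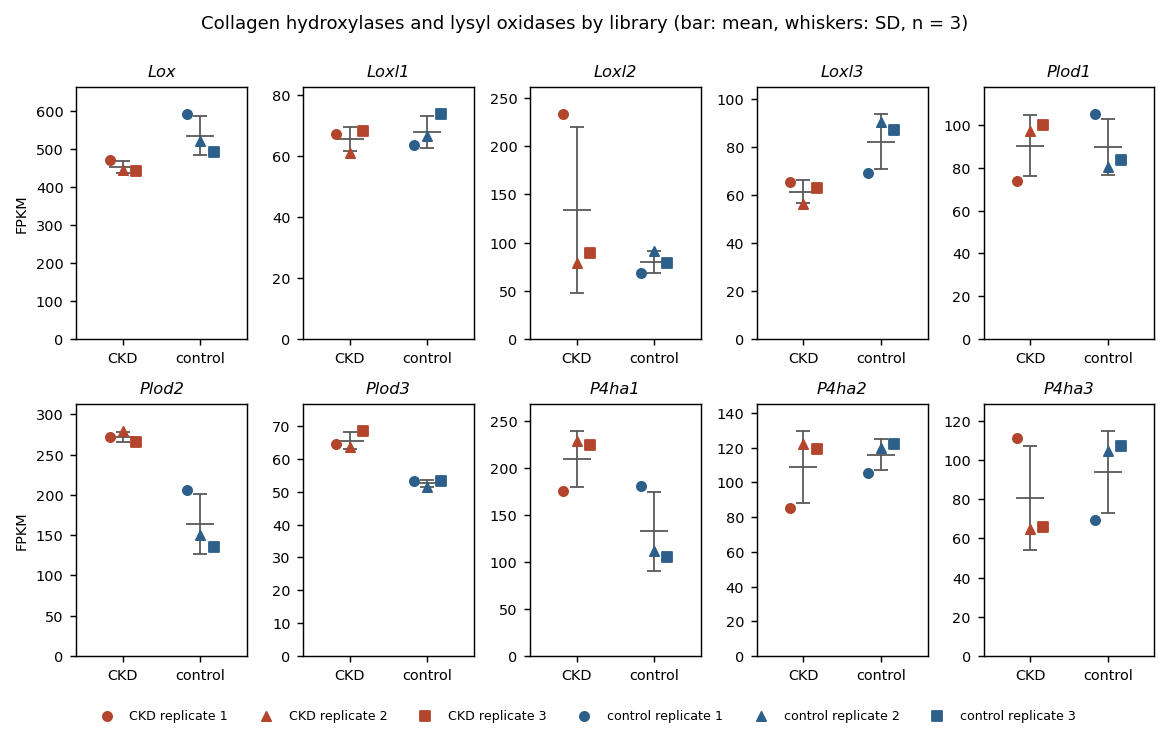
FPKM of the 10 enzyme genes in each library, with CKD left of control; points are libraries with 1 symbol per replicate number, the bar is the mean and whiskers are the SD (n = 3 each). Plod2 and Plod3 stand higher and Lox and Loxl3 lower in all CKD libraries than in all control libraries, and in Loxl2 a single CKD library at 233 FPKM stands apart.

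Among the prolyl 4-hydroxylase subunits, P4ha1, which encodes the widely expressed alpha subunit, was at 176, 229.6 and 224 FPKM in CKD replicates 1, 2 and 3, against 181, 112 and 105 FPKM in control replicates 1, 2 and 3. CKD replicates 2 and 3 were higher than every control library, and CKD replicate 1 was just under control replicate 1, so the groups overlapped. CKD libraries averaged 210.0 ± 29.5 and control libraries 133 ± 42.3 FPKM (SD, n = 3 each), with a log2 fold change of 0.69 ± 0.24 SE that did not pass (limma adjusted p = 0.176). It passed with control replicate 1 left out, at 0.94 (limma adjusted p = 0.0272).

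P4ha2, the second alpha subunit, was at 85.1, 121.9 and 119.4 FPKM in CKD, against 105, 119.8 and 121.8 FPKM in control. CKD replicate 1 was the lowest of all 6 libraries and the other values lay close together, with a log2 fold change of -0.10 (95% interval -0.50 to 0.29, limma adjusted p = 0.745). P4ha3, the third alpha subunit, was at 111, 64.6 and 65.5 FPKM in CKD, against 69.6, 104 and 107 FPKM in control. Here CKD replicate 1 lay with control replicates 2 and 3, and control replicate 1 lay with CKD replicates 2 and 3. Its log2 fold change of -0.24 had a 95% interval from -0.92 to 0.44 (limma adjusted p = 0.647).

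The 3 alpha subunits together summed to 372, 416 and 409 FPKM in CKD, against 356.5, 336 and 334 FPKM in control. Every CKD library was above every control library. Among single tested genes, such a gap on the higher side was found in 18.3%. P4ha1 made up 47.3%, 55.2% and 54.8% of this sum in CKD replicates 1, 2 and 3, against 50.9%, 33.2% and 31.5% in control replicates 1, 2 and 3. P4ha2 held 22.9% to 29.3% in CKD and 29.6% to 36.5% in control. The FPKM of P4ha2 itself overlapped between the groups, and its share also depends on the other subunits. These sums and shares were not tested. P4hb, the beta subunit, which is also the protein disulphide isomerase of the reticulum, was at 503, 705 and 708 FPKM in CKD, against 680.1, 616 and 629.7 FPKM in control. Its log2 fold change was -0.023 (95% interval -0.42 to 0.37, limma adjusted p = 0.947).

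Among the lysyl hydroxylases, Plod2 was at 271, 279 and 266 FPKM in CKD, against 206, 150.1 and 136 FPKM in control. The CKD libraries lay close together and all above the controls, of which replicate 1 was the highest. CKD libraries averaged 272 ± 6.58 and control libraries 164 ± 37.1 FPKM (SD, n = 3 each), 1.66 times as high. The log2 fold change was 0.75 ± 0.16 SE, and it did not pass (limma adjusted p = 0.0858). With control replicate 1 left out it was 0.93 and passed (limma adjusted p = 0.00837), and over the other libraries left out in turn it ran from 0.63 to 0.77 without passing. The log2 change of Plod2 in the authors' deposited table was 0.65, at q = 0.0141.

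Plod3, whose product also adds sugars to hydroxylysine, was at 64.4, 63.8 and 68.4 FPKM in CKD, against 53.3, 51.4 and 53.2 FPKM in control. Its fold change had the smallest standard error of the 10 genes, and the lowest CKD value was clear of the highest control value. CKD libraries averaged 65.5 ± 2.52 and control libraries 52.7 ± 1.07 FPKM (SD, n = 3 each). The log2 fold change was 0.31 ± 0.07 SE and did not pass (limma adjusted p = 0.0843). It passed with CKD replicate 1 left out (0.32, limma adjusted p = 0.0424) and with control replicate 1 left out (0.32, limma adjusted p = 0.0484). For Plod3 the authors' deposited table lists a log2 change of 0.23 and q = 0.0427.

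Plod1, which acts mainly on lysines within the helix, was at 73.9, 97.0 and 100.1 FPKM in CKD, against 104.9, 80.5 and 83.8 FPKM in control. CKD replicate 1 was the lowest and control replicate 1 the highest of the 6 libraries, and the other values lay between them. Its log2 fold change was 0.0069 (95% interval -0.39 to 0.41, limma adjusted p = 0.986), with a sign that turned when libraries were scaled by size factors or upper quartile.

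Within the lysyl hydroxylases, Plod2 took a larger share and Plod1 a smaller one in every CKD library than in every control library. Plod2 made up 66.2%, 63.4% and 61.2% of the summed FPKM of the 3 genes in CKD replicates 1, 2 and 3, against 56.5%, 53.2% and 49.8% in control replicates 1, 2 and 3. Plod1 made up 18.0%, 22.1% and 23.0% in CKD, against 28.8%, 28.5% and 30.7% in control. The ratio of Plod2 to Plod1 was 3.67, 2.88 and 2.66 in CKD, against 1.96, 1.87 and 1.62 in control, a mean of 3.07 ± 0.536 in CKD and 1.82 ± 0.177 in control (SD, n = 3 each). This ratio was formed within each library and does not depend on how libraries are scaled. The FPKM of Plod1 itself overlapped between the groups, and that of Plod2 did not. Shares and ratio all contain Plod2, so their gaps are not separate from the gap of Plod2. These shares were worked out after the values had been seen and were not tested.

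**Figure D2:**
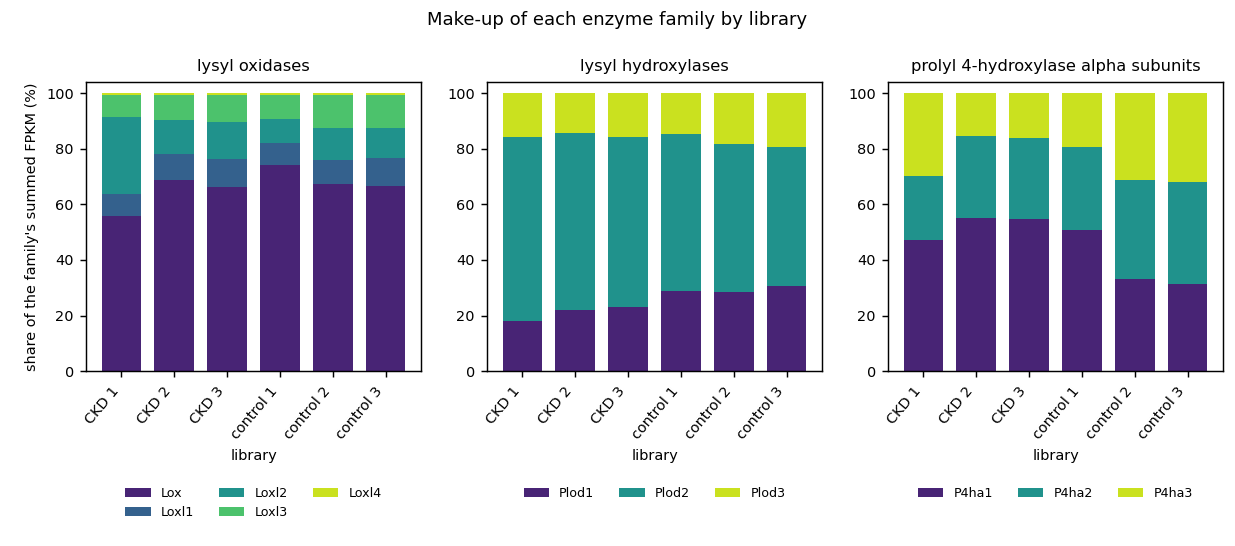
Share of each gene in the summed FPKM of its enzyme family, in percent, for each library, with CKD libraries left of control libraries; Loxl4 is the thin strip at the top of the lysyl oxidases. Plod2 holds 61.2% to 66.2% of the lysyl hydroxylases in CKD and 49.8% to 56.5% in control, and P4ha1 holds 33.2% and 31.5% of its family in control replicates 2 and 3, against 47.3% or more in the other 4 libraries.

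In the lysyl oxidase family, Lox was at 471, 444 and 441 FPKM in CKD, against 591, 521 and 491 FPKM in control. All CKD libraries lay below all controls, with control replicate 1 the highest. CKD libraries averaged 452 ± 16.3 and control libraries 534 ± 51.0 FPKM (SD, n = 3 each), 0.846 times as high. The log2 fold change was -0.24 ± 0.10 SE and did not pass (limma adjusted p = 0.240). For Lox the authors' deposited table lists a log2 change of -0.32 and q = 0.0758.

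Loxl3, an amine oxidase with scavenger receptor domains like Loxl2, was at 65.5, 56.4 and 62.9 FPKM in CKD, against 69.2, 90.5 and 87.3 FPKM in control. The groups were apart by a small gap, between CKD replicate 1 and control replicate 1. CKD libraries averaged 61.6 ± 4.70 and control libraries 82.3 ± 11.5 FPKM (SD, n = 3 each). The log2 fold change was -0.41 ± 0.13 SE and did not pass (limma adjusted p = 0.153). Without control replicate 1 it was -0.52 and passed (limma adjusted p = 0.0336). For Loxl3 the authors' deposited table lists a log2 change of -0.50 and q = 0.0350.

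Loxl2, which is best known for crosslinking the type IV collagen of basement membranes, was at 233, 79.2 and 89.4 FPKM in CKD, against 68.7, 91.3 and 79.1 FPKM in control. CKD replicate 1 was higher than any other library, and the other 5 lay between 68.7 and 91.3 FPKM. The log2 fold change of 0.57 ± 0.42 SE (limma adjusted p = 0.461) rested on that library, and without it was 0.087 (limma adjusted p = 0.710). That library is also the one tagged as control in the disease model label. CKD libraries averaged 134 ± 85.8 and control libraries 79.7 ± 11.3 FPKM (SD, n = 3 each). Loxl2 held 27.6%, 12.3% and 13.4% of the family's summed FPKM in CKD, against 8.62%, 11.8% and 10.7% in control.

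Loxl1, which is tied to elastic fibres, was at 67.2, 61.2 and 68.3 FPKM in CKD, against 63.5, 66.5 and 73.7 FPKM in control. The values of the groups interleaved. Its log2 fold change was -0.049 (95% interval -0.27 to 0.17, limma adjusted p = 0.787). Loxl4, the fifth gene of the family and not one of the 10, stood far lower, at 7.198, 5.34 and 5.51 FPKM in CKD, against 4.88, 5.84 and 5.68 FPKM in control (log2 fold change 0.11, limma adjusted p = 0.651). Lox itself held 55.8%, 68.7% and 66.1% of the family's summed FPKM in CKD, against 74.1%, 67.2% and 66.7% in control, so the groups overlapped.

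Since the first library of each group stood apart from the other 2, each difference was also formed within the first libraries and within the others. In the log2(FPKM + 1) scale, Plod2 was higher by 0.40 in CKD replicate 1 than in control replicate 1, and by 0.93 in the mean of CKD replicates 2 and 3 than in that of control replicates 2 and 3. Plod3 differed by 0.27 and 0.33 in these comparisons, Lox by -0.33 and -0.19, and Loxl3 by -0.078 and -0.57. All 4 had the same sign in both, which follows from their groups not overlapping and adds nothing to it. P4ha1 differed by -0.043 in the first libraries and by 1.06 in the others, so that only replicates 2 and 3 showed P4ha1 higher in CKD. For P4ha3 the differences were 0.67 and -0.69, for Plod1 -0.50 and 0.26, and for Loxl2 1.75 and -0.014, opposite in sign. P4ha2 differed by -0.31 and -0.0020, and Loxl1 by 0.081 and -0.11. Each of these values rests on 1 or 2 libraries a side and was not tested. Within each group, the first library differed from the mean of the other 2 by 1.46 for Loxl2 in CKD and by 0.74 for P4ha1 in control.

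**Figure D3:**
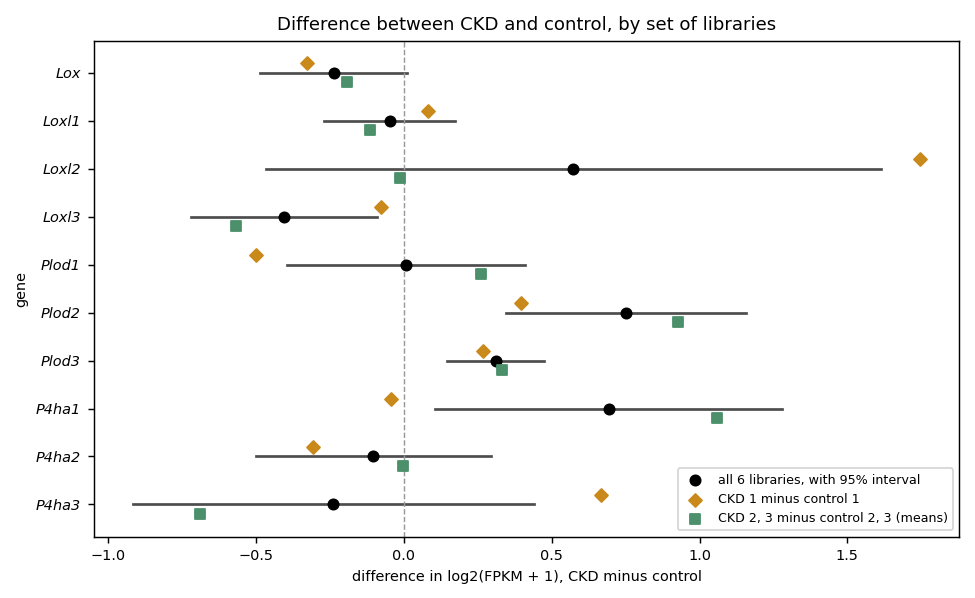
Difference in log2(FPKM + 1), CKD minus control, for the 10 genes from top to bottom: black points with lines are the limma estimate from all 6 libraries with its 95% interval, diamonds are CKD replicate 1 minus control replicate 1, and squares are the means of replicates 2 and 3. Diamonds and squares lie on the same side of 0 for Lox, Loxl3, Plod2, Plod3 and P4ha2 and on opposite sides for the other 5 genes.

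The summed FPKM of the haematopoietic markers, given above, and of 14 listed hypoxia response genes was highest in CKD replicates 2 and 3. P4ha1 was highest in the same libraries, and no other of the 10 genes was. Plod2 was at 271, 279 and 266 FPKM in CKD replicates 1, 2 and 3. The hypoxia genes summed to 640.3, 1579 and 1503 FPKM in CKD, against 721, 740.2 and 736 FPKM in control. Cd68, a macrophage marker, was at 11.8, 234.5 and 169.9 FPKM in CKD replicates 1, 2 and 3, against 21.8, 1.44 and 0.566 FPKM in control replicates 1, 2 and 3. Lyz2, a macrophage lysozyme gene with close relatives whose fragments may be shared, was at 232, 2224 and 1473 FPKM in CKD, against 271, 8.56 and 3.87 FPKM in control. Fcer1g, an adaptor of immune receptors, was at 10.9, 196 and 127 FPKM in CKD, against 21.8, 0.402 and 0.0398 FPKM in control. Of 13 tested haematopoietic markers, 13 had a positive log2 fold change and limma called 0. At an unadjusted p under 0.05 were 9 of them, where 22.1% of all tested genes reached that level. By limma-voom 0 were called and 1 had an unadjusted p under 0.05. Between the first libraries, 0 of the 13 were higher on the CKD side. In bulk samples, fewer cells of a type and less RNA per cell cannot be told apart. With the mean of these markers as a covariate, the log2 fold change was 0.50 for Plod2, 0.28 for Plod3, 0.13 for P4ha1, -0.15 for Loxl3 and -0.29 for Lox. In the same fit it was 1.59 ± 0.33 SE for Loxl2, 0.49 for P4ha3, -0.39 for Plod1, -0.31 for P4ha2 and 0.064 for Loxl1. With this covariate 0 of the 10 genes were called in a fit that called 0.16% of all genes. All 13 markers leaned higher in CKD, so the covariate goes partly with the groups and this fit cannot fully separate them. The part of the marker cells in the values of the enzymes was not tested.

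The hypoxia list leaves out the enzymes themselves. It had 13 tested genes, of which 12 were positive, at a median log2 fold change of 0.57. Limma called 0 of them, with 3 at an unadjusted p under 0.05, and limma-voom also called 0, with 3 at that level. In limma, 22.1% of all tested genes reached that level. Without CKD replicate 1, limma called 10 of the 13 hypoxia genes and 8 of the 13 haematopoietic markers, all higher. That fit called 15.1% of all tested genes. With both first libraries left out, limma called 11 and 13 of them, in a fit that called 55.0% of all tested genes. Ldha, which makes lactate, was at 231, 618 and 602 FPKM in CKD, against 224, 275 and 272 FPKM in control. Pgk1, a glycolytic kinase, was at 206, 494 and 456 FPKM in CKD, against 252, 224 and 215 FPKM in control. Bnip3, a mitophagy receptor, was at 42.4, 138 and 124 FPKM in CKD, against 60.3, 60.4 and 60.3 FPKM in control. In these 3 genes CKD replicates 2 and 3 were above all controls and CKD replicate 1 was not. In 2 others of the list, named after their values were seen, all CKD libraries were above all controls. These were Slc2a1, a glucose transporter gene, and Car9, a carbonic anhydrase gene. Such a gap on the higher side was found in 18.3% of all tested genes. The part of the hypoxia genes in the values of the enzymes was not tested.

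Genes that work beside these enzymes were read from a list of 30, of which 29 were in the table and 25 were tested. Of these, 1 passed in the higher and 1 in the lower direction, where 1.33% of all tested genes passed as higher and 0.733% as lower. Both act on the same step, the removal of the C-terminal propeptide that lets procollagen assemble into fibrils. Bmp1, the procollagen C-proteinase, which also activates the Lox proenzyme, rose in CKD. It was at 28.7, 24.6 and 24.9 FPKM in CKD, against 16.4, 14.7 and 16.3 FPKM in control, with means of 26.1 ± 2.27 in CKD and 15.8 ± 0.970 in control (SD, n = 3 each). Its log2 fold change was 0.69 ± 0.09 SE (adjusted p = 0.0399, limma). Pcolce, the enhancer protein of that proteinase, fell to 472, 467 and 483 FPKM in CKD, against 714, 693 and 731 FPKM in control, with means of 474 ± 8.28 in CKD and 713 ± 18.9 in control (SD, n = 3 each). Its log2 fold change was -0.59 ± 0.08 SE (adjusted p = 0.0399, limma).

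The ratio of Pcolce to Bmp1 was 16.4, 19.0 and 19.4 in CKD, against 43.6, 47.2 and 44.8 in control. It lay in a narrow range within each group, the first libraries included. The ratio joins the 2 partner genes that were called, in opposite directions, so its gap between the groups follows from that choice. It was not tested. The authors' deposited log2 change was 0.65 for Bmp1 (q = 0.000213) and -0.67 for Pcolce (q = 1.06e-15). In limma both calls were close to the threshold. They were lost when replicate 2 or 3 of either group was left out, in fits that called 6 to 9 of all tested genes. Limma adjusted p in these fits ran from 0.153 to 0.210 for Bmp1 and from 0.153 to 0.223 for Pcolce. Both were also lost when the mean of the haematopoietic markers was a covariate (limma adjusted p = 0.157 for Bmp1 and 0.175 for Pcolce), with log2 fold changes of 0.78 for Bmp1 and -0.59 for Pcolce. Over all 19 alternatives the adjusted p ran from 0.000234 to 0.949 for Bmp1 and from 0.000219 to 0.783 for Pcolce, with the direction kept in each. In fits that only left libraries out, the direction could not turn, since the groups of both genes did not overlap. The log2 fold changes in the fits without 1 of those 4 libraries ran from 0.64 to 0.73 for Bmp1 and from -0.61 to -0.57 for Pcolce. With groups by the disease model tag they were far smaller, at 0.073 ± 0.30 SE for Bmp1 and -0.22 ± 0.24 SE for Pcolce.

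Chaperones and modifying enzymes of the reticulum did not pass. Serpinh1, the collagen chaperone HSP47, was at 1056, 729 and 720.2 FPKM in CKD, against 1077, 622 and 622.5 FPKM in control, with the first library of each group the highest. Log2 fold changes were -0.23 for Fkbp10, a prolyl isomerase that works with Plod2, -0.067 for Ppib, a cyclophilin, and -0.039 for Crtap, the partner of the prolyl 3-hydroxylase P3h1, whose own value was 0.13. Colgalt1, which adds galactose to hydroxylysine, had -0.082, Efemp2, a fibulin that brings Lox to elastic fibres, 0.11, and Atp7a, the pump that loads copper onto Lox, 0.080. Limma adjusted p-values of these 8 genes ran from 0.481 to 0.839. Of all 25 tested partner genes, 3 were higher and 3 lower at an unadjusted limma p under 0.05, while 22.1% of all tested genes reached that level. Groups did not overlap in 4 partner genes on the higher and 3 on the lower side, against 18.3% and 9.59% of all tested genes. Chosen after their values were seen, P3h3, another prolyl 3-hydroxylase gene, was at 51.4, 51.3 and 51.1 FPKM in CKD, against 60.4, 65.9 and 66.7 FPKM in control (limma adjusted p = 0.0858), and Tgm2, a transglutaminase that crosslinks matrix proteins by another bond, was at 2.85, 5.28 and 5.55 FPKM in CKD, against 6.69, 27.6 and 25.7 FPKM in control (limma adjusted p = 0.156). On the higher side, and likewise chosen afterwards, Slc31a1, a copper importer gene, was at 22.6, 35.4 and 33.8 FPKM in CKD, against 21.4, 14.7 and 13.9 FPKM in control (limma adjusted p = 0.128). Adamts14, a procollagen N-proteinase gene, was at 3.35, 1.55 and 2.11 FPKM in CKD, against 1.14, 0.915 and 0.847 FPKM in control (limma adjusted p = 0.132).

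**Figure D4:**
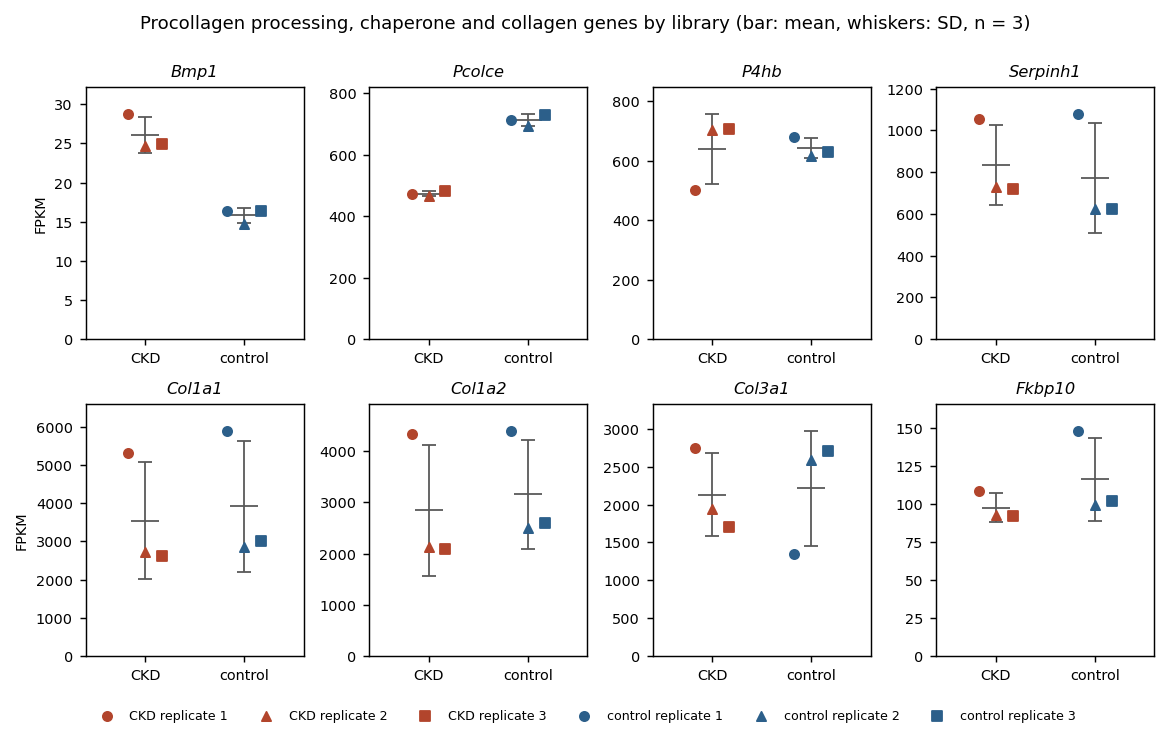
FPKM of 8 genes of procollagen processing, folding and structure in each library, with CKD left of control; points are libraries, the bar is the mean and whiskers are the SD (n = 3 each). Bmp1 is higher and Pcolce lower in all CKD libraries, and in Serpinh1, Col1a1 and Col1a2 the first library of each group is above the other 2.

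Fibrillar collagens are the main substrates of these enzymes. Of 8 tested fibrillar collagen genes limma called 0, and limma-voom also called 0. In limma 2 were at an unadjusted p under 0.05, both higher, where 22.1% of all tested genes reached that level. The 2, Col5a3 and Col27a1, named after their values were seen, were minor chains at up to 19.7 and 4.62 FPKM. Col1a1 was at 5299, 2712 and 2620.2 FPKM in CKD, against 5881, 2858 and 2999.8 FPKM in control. Col1a2 was at 4328, 2124 and 2089 FPKM in CKD, against 4389.7, 2498 and 2589 FPKM in control. The first library of each group was the highest in both chains of type I collagen. Col3a1 was at 2754, 1945 and 1701 FPKM in CKD, against 1345, 2589 and 2709 FPKM in control (log2 fold change -0.017, limma adjusted p = 0.984).

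Set against the summed FPKM of Col1a1 and Col1a2, Plod2 stood at 2.82, 5.77 and 5.65 FPKM per 100 FPKM in CKD, against 2.01, 2.80 and 2.43 in control. The groups were just apart, with CKD replicate 1 close to control replicate 2. P4ha1 stood at 1.83, 4.75 and 4.77 in CKD, against 1.77, 2.08 and 1.88 in control, and here the groups overlapped. Lox stood at 4.89, 9.18 and 9.37 in CKD, against 5.75, 9.73 and 8.79 in control, so that its level relative to type I collagen separated the first libraries from the others and not CKD from control.

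The genes whose levels over the 6 libraries were most like those of the pair of members with the lowest p were looked up among 10628 genes. For Plod2 these were Cdc42se2 (r = 0.998), Mybl1 (r = 0.998) and Dcn (r = 0.996), where r is Pearson's correlation of log2(FPKM + 1). Dcn, which encodes the proteoglycan decorin, was at 228, 312 and 227 FPKM in CKD, against 87.0, 19.9 and 9.15 FPKM in control. For Plod3 they were Pcbp1 (r = 0.993), Adrm1 (r = 0.993) and Trap1 (r = 0.992). With 6 libraries that share 2 groups and contain alike pairs, such values are common: r was above 0.95 with 328 genes for Plod2 and 156 genes for Plod3.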

How the data were processed

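For 16690 genes the authors deposited FPKM of every library, with group means of normalized counts, their ratio (fold change), its log2, and columns of p-value and q-value named as such per the file headers. The submitters' processing notes name HISAT2 2.1.0, HTSeq 0.11.2, SAMtools 1.9, FastQC 0.11.9, DESeq 1.34.1 and DESeq2 1.22.2 and the build mRatBN7.2, without order or settings. Libraries were poly-A selected and stranded, per the labels' protocols.

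Groups and replicate numbers follow the column codes. Libraries with the same number were not treated as pairs. Each library was counted as 1 replicate. Chi-square per degree of freedom was 14.1 between CKD replicates 2 and 3 and 5.53 between control replicates 2 and 3, against 139 or more for the other pairs. These values show differences beyond counting noise, not that the libraries are independent. Nothing ties libraries to separate animals, and p-values cover no more than the spread among the 6 libraries, part of which may be technical.

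Limma 3.58.1 under R 4.3.3 compared CKD with control on log2(FPKM + 1), the scale of all fold changes, which understates those of low genes. Trended variance was used without covariates, and tests were two-sided, with Benjamini-Hochberg adjustment over the 10638 genes at 1 FPKM or more in at least 3 libraries. Fragment counts recovered from FPKM and the deposited means were whole within 0.01 throughout and served for depth and limma-voom. The fit was tested on simulated counts, drawn independently for each library. These lacked the alike pairs of the real libraries, so they cannot show how the fit behaves with such pairs. The 10 genes, lists and tests were chosen with earlier results of these data known. Named are the 10 genes, 12 partner and 3 collagen genes fixed by name, and any other called gene of those lists. So are the 3 most abundant hypoxia and haematopoietic genes. For the 2 members with the lowest p, the 3 genes most like each are named. Itgb1, Lepr, Ptprc, Eng, Nt5e, Cd44, Pdgfrb, Vcam1, Thy1, P3h3, Tgm2, Slc31a1, Adamts14, Col5a3, Col27a1, Slc2a1 and Car9 were named after their values were seen. Coordinates are not given, since the reference gene table is of another assembly (GRCr8).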

Additional observations from a re-analysis of the deposited data

How the results depend on the processing

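The results were computed again under 19 alternatives. Of 190 log2 fold changes of the 10 genes, 156 kept their sign and their side of the threshold, 19 kept their sign and passed it, and 15 turned sign. Plod2, Plod3, P4ha1, Lox and Loxl3 kept their sign in all 19. With groups by the disease model tag, however, they were nearer to 0, at 0.18 for Plod2, 0.097 for Plod3, 0.26 for P4ha1, -0.14 for Lox and -0.099 for Loxl3, with limma adjusted p-values from 0.755 to 0.889.

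The number of the 10 genes called was 4 higher and 3 lower in limma-voom with sample quality weights, and the same numbers with both first libraries left out, a fit between pairs of alike libraries. Leaving out 1 library at a time, it ran from 0 to 3 higher and from 0 to 1 lower. Deviations of same-numbered libraries from the group means correlated at 0.036, -0.031 and 0.11 for numbers 1, 2 and 3. CKD replicates 1 and 3 correlated best with their own number, and CKD replicate 2 with control replicate 1. In level, CKD replicate 1 and control replicate 1 were the most alike libraries of different groups (r = 0.967). With the replicate block 0 of the 10 were called, and Plod2 had a limma adjusted p of 0.123. Over all genes, 220 were called as reported. The number was 133 without a filter on low values, 106 with at least 1 FPKM in all 6 libraries, 97 in limma-voom, 5953 in limma-voom with quality weights, 88 with the replicate block, 17 when the mean of the haematopoietic markers was a covariate, 0 in limma when the disease model tag set the groups (641 at an unadjusted p under 0.05) and 5851 with both first libraries left out. It ran from 6 to 1602 with 1 library left out.

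Of the partner genes, 2 were called, and 1 of these without a filter, with size factors, with the same upper quartile or in limma-voom. With libraries that share a name start averaged, 1 was called, but neither Bmp1 nor Pcolce (limma adjusted p = 0.0541 and 0.0724). The count was 12 in limma-voom with quality weights, 15 with both first libraries left out, 0 with the replicate block (limma adjusted p = 0.0600 for Bmp1 and 0.0871 for Pcolce), 0 with the covariate, 0 with both libraries with conflicting tags left out, 0 with groups by the tag, and 0 to 5 with 1 library left out. The cause was not tested.

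Signs turned for 5 of the 10 genes, Loxl2 with its log2 fold change of 0.57 among them. Loxl1 was at 0.064 with the covariate and between -0.095 and 0.011 with 1 library left out. Loxl2 was at -0.32 with groups by the tag and -0.014 with both first libraries left out. Plod1 was at -0.060 with size factors, -0.054 with the same upper quartile and -0.39 with the covariate, and between -0.073 and 0.14 with 1 library left out. P4ha2 was at 0.089 with both libraries with conflicting tags left out, 0.22 with groups by the tag, and between -0.19 and 0.063 with 1 library left out. P4ha3 was at 0.49 with the covariate. The standard error of Plod2 was 0.16 with all 6 libraries and 0.065 with both first libraries left out.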
